A study of Mus musculus with 16 samples.

Results

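The Obox genes are a family of oocyte homeobox genes of the mouse, 5 of which are described here: Obox1, Obox2, Obox3, Obox5 and Obox6. Their values were taken from every probe set whose platform annotation gave exactly 1 of these symbols, a probe set being the group of short probes that an array summarises into 1 value. Of 35556 probe sets, 21218 carried 1 gene symbol, and 4 of those belonged to a member: 1 to Obox3, 1 to Obox5 and 2 to Obox6. Obox1 and Obox2 had no probe set of their own and were read only by 3 probe sets that also name other Obox genes. With 1 that names Obox3 and Obox7, there were 4 shared probe sets, and they are given beside the 4 single-gene ones, together with the single probe set of Obox7, a gene of the family that is no member.

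RNA of growing mouse oocytes was measured on 16 Affymetrix Mouse 1.1 ST arrays, 4 labelled biological replicates for each of 4 genotypes, every sample being made from 80 oocytes of 12-day-old C57BL/6 mice. The groups were oocytes lacking both HDAC1 and HDAC2 (Hdac1/2 double knockout), oocytes lacking HDAC1 (Hdac1 knockout), oocytes lacking HDAC2 (Hdac2 knockout), and wild type. Deletion used conditional alleles and Zp3-Cre, a recombinase driven by the promoter of a zona pellucida gene and active in growing oocytes; the labels do not say whether the wild-type mice carried the conditional alleles or the transgene. HDAC1 and HDAC2 are closely related histone deacetylases that act in the same co-repressor complexes, and the comparison of the genotypes asks what each contributes in the growing oocyte.

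OBOX proteins have a homeodomain of the paired-like type related to those of OTX and CRX, and bind DNA. Their genes lie in an expanded cluster of copies on mouse chromosome 7, next to Crx, together with many pseudogenes; in the supplied RefSeq gene table the family has 6 protein-coding genes and 45 pseudogenes on chromosome 7 and 2 pseudogenes on chromosome 17. In mice, Obox1, Obox2, Obox5 and Obox7 are known as maternal transcripts stored in the oocyte, Obox3 as a gene switched on in the early embryo, and OBOX proteins as factors that help to start transcription from the embryonic genome. Obox6 is expressed in the early embryo, and mice without it have been reported to develop normally.

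The copies resemble each other outside their coding sequence too, and the promoter stretches are shown because they let a reader see how alike the genes are that the array has to tell apart. RefSeq windows from 250 bases before to 50 bases after the annotated start (GRCm38.p6) were at hand for Obox1, Obox2, Obox3, Obox5 and Obox7. The stretches below run 5′ to 3′ along each gene, and capitals mark a run of 25 bases identical in all 5 windows and a run of 42 bases identical in 4 of them. They lie at chr7:15547151-15547274 (+ strand, Obox1), chr7:15388842-15388880 (+ strand, Obox2), chr7:15639771-15639894 (- strand, Obox3), chr7:15750252-15750375 (+ strand, Obox5) and chr7:14659616-14659737 (+ strand, Obox7), and the Obox7 stretch ends inside the longer run.
Obox1: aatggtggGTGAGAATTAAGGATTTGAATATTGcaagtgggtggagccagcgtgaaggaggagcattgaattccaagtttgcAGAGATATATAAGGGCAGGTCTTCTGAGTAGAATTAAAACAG
Obox2: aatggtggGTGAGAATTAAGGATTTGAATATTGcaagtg
Obox3: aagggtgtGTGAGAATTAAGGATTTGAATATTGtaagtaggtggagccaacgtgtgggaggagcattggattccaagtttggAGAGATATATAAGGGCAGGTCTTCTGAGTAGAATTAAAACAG
Obox5: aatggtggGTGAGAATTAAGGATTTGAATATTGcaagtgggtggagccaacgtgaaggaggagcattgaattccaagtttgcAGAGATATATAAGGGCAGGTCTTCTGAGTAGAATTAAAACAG
Obox7: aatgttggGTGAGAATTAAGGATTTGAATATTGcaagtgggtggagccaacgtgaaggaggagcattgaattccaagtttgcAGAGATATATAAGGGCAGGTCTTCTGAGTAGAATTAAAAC
The 25-base run was found in 5 of 32851 promoter windows of the table, those of the 5 Obox genes, and the 42-base run in 4, those of Obox1, Obox3, Obox5 and Obox7. The longer run spans the annotated start in these 4 genes, whereas the Obox2 window is placed so that the shorter run covers its annotated start and the longer one would lie past its end. Among pairs, the longest identical run was 203 bases between Obox1 and Obox2 and 134 bases between Obox5 and Obox7. It was 82 bases between Obox5 and either Obox1 or Obox2, and between 25 and 70 bases for Obox3 against the other members. By this measure Obox3 was the least like the other members, and Obox5 was more like Obox7 than like any member. A run ends at any differing base and depends on where the windows lie, so the measure is rough. In the stretches printed above, Obox1 was as close to Obox5 as Obox7 was.

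A short set of motifs was looked for on both strands of the same windows. The homeodomain-type elements TAATTG and TAATTA had no match in the 5 windows, against 8.0% and 5.3% of all windows. TAATCC, the letters bound by OTX and CRX homeodomains, occurred in the Obox3 window alone (7.06% of all windows), as did TATAAA (13.6%). CANNTG, the E-box read by helix-loop-helix factors, occurred in the Obox1, Obox2, Obox5 and Obox7 windows but not in that of Obox3 (72.3% of all windows); in all 4 an E-box begins at the base after the 25-base run. CCAAT occurred in 3 windows (37.4% of all) and GGGCGG in none (35.7% of all). A match is only a match of letters, and its absence says only that these letters are not in this window. Similar letters were not counted, such as the TATATAAG inside the longer shared run.

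**Figure D1:**
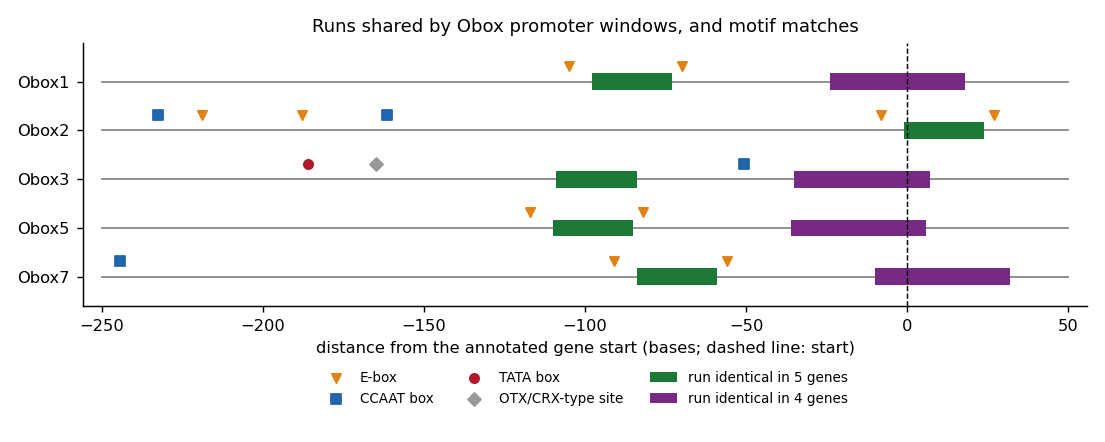
Promoter windows of 5 Obox genes (rows), drawn along the distance in bases from the annotated gene start; bars mark the runs identical in 5 genes (25 bases) and in 4 genes (42 bases), and symbols above the lines mark motif matches on either strand. The longer bar lies across the start in Obox1, Obox3, Obox5 and Obox7, and in Obox2 the shorter bar lies there. The TATA box symbol marks the letters TATAAA only.

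The deletion was visible on the arrays for Hdac1. The Hdac1 probe set averaged 7.66 ± 0.10 in double knockout and 6.61 ± 0.19 in Hdac1 knockout oocytes, against 9.64 ± 0.11 in Hdac2 knockout and 9.28 ± 0.05 in wild-type oocytes (log2 signal, SD, n = 4 each). The Hdac2 probe set averaged 10.87 ± 0.06, 11.13 ± 0.05 and 10.99 ± 0.03 in double, Hdac1 and Hdac2 knockouts and 11.09 ± 0.07 in wild type, and its change in the Hdac2 knockout did not pass (-0.10, limma adjusted p = 0.33). It was lower by 0.21 in the double knockout (change -0.21, adjusted p = 0.00274). The arrays therefore give no check of the Hdac2 deletion in the single knockout, and whether the probes lie in the deleted part is not given. Array medians lay between 4.46 and 4.59 and arrays of 1 genotype correlated at 0.992 to 0.995; the number of arrays limits the precision. Oocyte markers were bright throughout, their mean over 11 measured genes ranging over arrays from 11.68 to 11.70 in double knockout, 11.67 to 11.72 in Hdac1 knockout, 11.66 to 11.70 in Hdac2 knockout and 11.73 to 11.75 in wild type.

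Of the member probe sets, that of Obox5 fell in oocytes without both deacetylases and no other passed the test there. Obox5 signal in the double knockout was 78.1% of that in wild type, and it was also lower than in either single knockout. Obox3, the other bright member, differed by -0.04 on the log2 scale, and both probe sets of Obox6 were dim in every genotype. In the limma fit across all 21218 single-symbol probe sets, 1 of 4 member probe sets was lower and 0 higher in the double knockout (adjusted p under 0.05), with a median log2 change of -0.03, against 38.3% of all probe sets changed (19.8% lower and 18.5% higher) and a median of -0.01. With so few probe sets the members' count is not set apart from that background. Against the Hdac1 knockout 1 of 4 was lower (38.7% of all changed), against the Hdac2 knockout 1 of 4 (33.7% of all), and between the single knockouts 0 of 4 differed (5.78% of all), nor did any at an unadjusted p under 0.05 (18.6% of all).

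Obox5, probe set 10550212, is a maternal member of the family. Copies share probe sequence, and how far other copies add to the signal of this probe set was not tested. The log2 signal was 10.92, 11.18, 10.99 and 11.18 on the double knockout arrays. It was 11.28, 11.43, 11.46 and 11.42 in Hdac1 knockouts, 11.31, 11.33, 11.34 and 11.30 in Hdac2 knockouts, and 11.43, 11.45, 11.43 and 11.39 in wild type. All 4 double knockout arrays lay below all 12 others, as was so for 11.2% of all single-symbol probe sets, and they were also more spread out (SD 0.13, against 0.02 in wild type).

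The fall of Obox5 in the double knockout was -0.36 ± 0.06 (log2, limma SE) against wild type, with a 95% interval from -0.49 to -0.23 and an adjusted p of 0.000185. An exact permutation test of these 8 arrays, two-sided, gave p = 0.0286, the smallest that its 70 arrangements allow; the share of all single-symbol probe sets with double knockout arrays all below wild type was 18.9%. The change was -0.33 ± 0.06 against the Hdac1 knockout (adjusted p = 0.000362) and -0.26 ± 0.06 against the Hdac2 knockout (adjusted p = 0.00379). At 1.28-fold it stayed under the 1.4-fold limit that the study's design text names. In bulk RNA of pooled oocytes, fewer oocytes with the transcript and less transcript per oocyte cannot be told apart.

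In the single knockouts Obox5 did not pass the test. Its change was -0.03 ± 0.06 in the Hdac1 knockout, where the arrays overlapped wild type (adjusted p = 0.953). In the Hdac2 knockout it was -0.10 ± 0.06 (limma adjusted p = 0.413), although all 4 arrays lay below all 4 wild-type arrays (exact permutation p = 0.0286; 7.17% of all probe sets did so). The interaction, which is the double knockout change less both single-knockout changes, was -0.23 ± 0.09 in the limma fit (adjusted p = 0.069), short of the threshold; it passed when dim probe sets were left out (adjusted p = 0.0369), when arrays were centred on their medians (0.0116), after quantile normalization (0.0142) and with a trended prior (0.0233), and also without double knockout replicate 2 (0.0384) or 4 (0.0389) or Hdac1 knockout replicate 1 (0.0338). Over the members, 0 of 4 probe sets passed in the Hdac1 knockout (0.0707% of all), 0 of 4 in the Hdac2 knockout (5.59% of all) and 0 of 4 for the interaction (23.3% of all) in the limma fit; at an unadjusted p under 0.05 the counts were 0 (8.7% of all), 0 (18.5% of all) and 1 (34.2% of all).

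Obox3, probe set 10560153, is known from the early embryo, and its probe set was bright in these growing oocytes as well. Copies share probe sequence and the probe sequences were not at hand. How far other copies add to this signal was not tested. Its log2 signal was 9.19, 9.42, 9.27 and 9.44 in double knockouts. It was 9.37, 9.50, 9.59 and 9.47 in Hdac1 knockouts, 9.35, 9.43, 9.43 and 9.28 in Hdac2 knockouts, and 9.38, 9.30, 9.47 and 9.33 in wild type. The 4 genotypes overlapped, with the double knockout holding the lowest array and the Hdac1 knockout the highest.

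Obox3 averaged 9.33 ± 0.12 in double knockout and 9.37 ± 0.07 in wild-type oocytes (SD, n = 4 each), a change of -0.04 with a 95% interval from -0.18 to 0.11 (limma adjusted p = 0.714). The interval leaves out a fall of the size of that of Obox5. Against the Hdac1 knockout the change was -0.15 ± 0.07 (adjusted p = 0.0945); that call depends on scaling, since it passed when arrays were centred on their medians (-0.25, adjusted p = 0.0073) and after quantile normalization (-0.18, adjusted p = 0.0457). Centring moved the median of all probe sets in that comparison to -0.11, against -0.01 as deposited. The change of Obox3 was 0.11 ± 0.07 in the Hdac1 knockout (adjusted p = 0.684) and 0.00 ± 0.07 in the Hdac2 knockout (adjusted p = 0.994).

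The unequal change of Obox5 and Obox3 was tested within arrays, where an offset common to all probe sets of an array cancels. Scaling that depends on brightness need not cancel. This test, the 2 others like it below and their adjustment over 3 comparisons were added after the values were seen. The difference Obox5 minus Obox3 was 1.73 ± 0.01 on double knockout arrays, ranging from 1.72 to 1.75, and 2.05 ± 0.08 on wild-type arrays, ranging from 1.96 to 2.14 (SD, n = 4 each). Only the change of this difference between genotypes has a meaning, since different probes set its level. It was lower by 0.32 in the double knockout on the log2 scale, with no overlap of arrays (exact permutation p = 0.0286, adjusted p = 0.0429). That p is the smallest the test allows, and the adjustment does not cover the choice of the pair. Of single-symbol probe sets 18.9% had double knockout arrays all below wild type, and the share among other pairs was not tested. Within genotypes the pair moved together: over 16 arrays the deviations from the genotype means correlated at 0.83, a description in which both probe sets share each array's RNA and labelling.

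**Figure D2:**
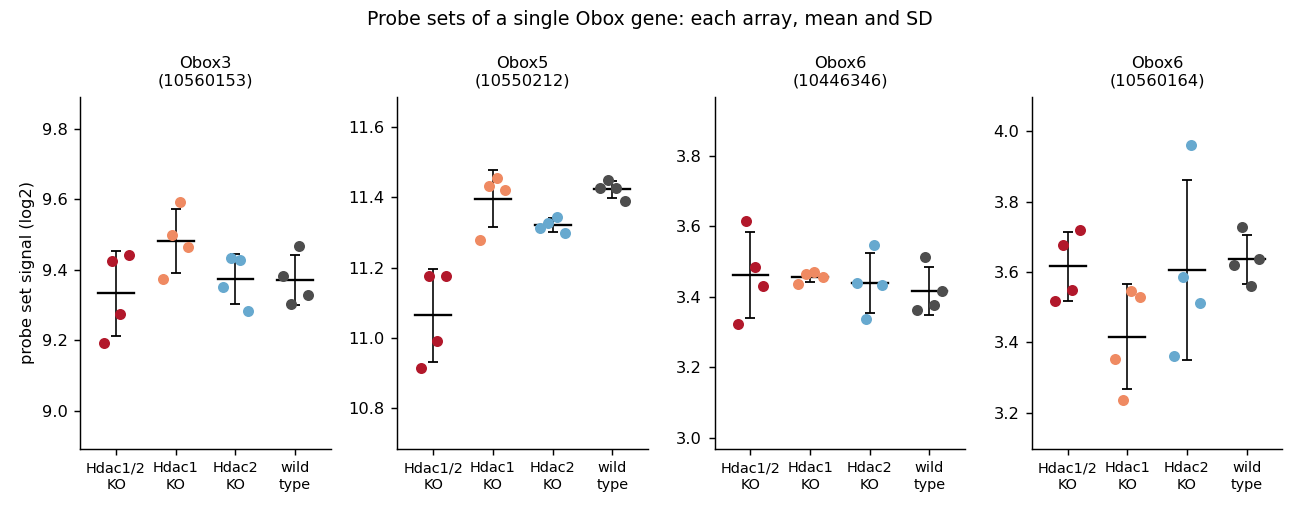
Log2 signal (vertical axis, a span of 1 in every panel) of the 4 probe sets of a single member, with 1 point per array, bars for the mean and SD, and genotypes along the horizontal axis. The 4 double knockout arrays of Obox5 lie between 10.92 and 11.18. They lie below all other arrays, as was so for 11.2% of all single-symbol probe sets. In the other panels the double knockout and wild-type arrays overlap.

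Obox6 was read by 2 probe sets, both dim, and the annotation does not say which copy each reads. Probe set 10560164 ranged from 3.52 to 3.72 in double knockouts, 3.24 to 3.55 in Hdac1 knockouts, 3.36 to 3.96 in Hdac2 knockouts and 3.56 to 3.73 in wild type. Probe set 10446346 ranged from 3.32 to 3.62, from 3.44 to 3.47 and from 3.34 to 3.55 in the double, Hdac1 and Hdac2 knockouts and from 3.36 to 3.51 in wild type. Both lie under the median of all tested probe sets, 5.27, and were dropped when dim probe sets were left out.

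The changes of Obox6 in the double knockout were -0.02 ± 0.10 (10560164, adjusted p = 0.909) and 0.05 ± 0.06 (10446346, adjusted p = 0.637). In the Hdac1 knockout, 10560164 lay below wild type on all arrays, by 0.22 ± 0.10 (change -0.22, exact permutation p = 0.0286; 2.42% of all probe sets did so), but it did not pass in the limma fit (adjusted p = 0.574) and the second probe set differed by 0.04 in the other direction. The mean of both probe sets changed by 0.01 ± 0.07 in the double knockout, -0.09 ± 0.07 in the Hdac1 knockout and 0.00 ± 0.07 in the Hdac2 knockout. At this brightness a change of a low Obox6 transcript may not have been detectable.

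Obox1 and Obox2 could be followed only through 3 probe sets that name Obox1, Obox2, Obox5 and Obox7 together. Of these, 10550183 and 10550202 held identical values on all 16 arrays and were counted as 1 measurement, and 10550197 differed from them by at most 0.075. A fall of 1 gene cannot be assigned within such a sum, and since Obox5 and Obox7 are in it, the shared values say little of Obox1 and Obox2 themselves.

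Probe set 10550183 read 11.07, 11.34, 11.07 and 11.27 in double knockouts. It read 11.22, 11.39, 11.55 and 11.43 in Hdac1 knockouts, 11.37, 11.46, 11.46 and 11.38 in Hdac2 knockouts, and 11.42, 11.27, 11.40 and 11.38 in wild type. Double knockout arrays were low, but they overlapped those of wild type and of the Hdac1 knockout. Probe set 10550197 averaged 11.16 ± 0.15 in double knockouts, 11.37 ± 0.09 in Hdac1 knockouts, 11.37 ± 0.06 in Hdac2 knockouts and 11.34 ± 0.07 in wild type (SD, n = 4 each), and replicates 1 and 3 were again the lowest of the double knockout.

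Shared probe sets were tested in the fit of all 35556 probe sets. Against wild type, the double knockout differed by -0.18 ± 0.08 for 10550183 (limma adjusted p = 0.109) and by -0.18 ± 0.07 for 10550197 (adjusted p = 0.0841), and 0 of the 3 distinct shared probe sets passed (27.8% of all), although all 3 had an unadjusted p under 0.05 (35.8% of all). This depends on scaling. With arrays centred on their medians 10550183 changed by -0.26 (adjusted p = 0.0133) and 10550197 by -0.27 (adjusted p = 0.0106), and without double knockout replicate 2 the changes were -0.23 (adjusted p = 0.0466) and -0.23 (adjusted p = 0.0297).

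Against the single knockouts, both distinct probe sets of Obox1, Obox2, Obox5 and Obox7 lay near the threshold. Probe set 10550183 was lower in the double knockout than in the Hdac2 knockout by 0.23 (change -0.23, limma adjusted p = 0.0421, 24.5% of all probe sets changed), and 10550197 than in the Hdac1 knockout by 0.21 (change -0.21, adjusted p = 0.0413, 28.7% of all). The first call was lost without double knockout replicate 1 (adjusted p = 0.119) or 3 (0.124) or without any of the 4 Hdac2 knockout replicates (0.0548 to 0.0973). The second was lost without double knockout replicate 1 (adjusted p = 0.126) or 3 (0.125), or Hdac1 knockout replicate 2 (0.0674), 3 (0.124) or 4 (0.0862). In the single knockouts against wild type, the changes of the shared probe sets lay between -0.04 and 0.07 on the log2 scale and did not pass.

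The single-gene probe set of Obox5 fell by more than the shared one. Obox5 minus 10550183 was -0.13 ± 0.04 on double knockout arrays, against 0.06 ± 0.08 on wild-type arrays (SD, n = 4 each). The change was -0.18 with no overlap (exact permutation p = 0.0286, adjusted over the 3 added comparisons 0.0429). Here too the p is the smallest the test allows, and the adjustment does not cover the choice of the pair. Double knockout arrays lay all below wild type for 18.9% of single-symbol probe sets, and the share among other pairs was not tested.

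Obox7, also a maternal gene of the cluster, had a larger log2 change in the double knockout than any member with a probe set of its own. Its probe set 10550175 read 8.41, 8.82, 8.38 and 9.07 in double knockouts. It read 9.69, 9.48, 9.65 and 9.40 in Hdac1 knockouts, 9.20, 9.16, 9.42 and 9.09 in Hdac2 knockouts, and 9.61, 9.13, 9.76 and 9.64 in wild type. Double knockout arrays lay below all others, as was so for 11.2% of all single-symbol probe sets. In wild type, replicate 2 lay among the arrays of the Hdac2 knockout. As for Obox5, how far other copies add to the signal of this probe set was not tested.

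Obox7 in the double knockout had 55% of the wild-type signal, a change of -0.86 ± 0.15 (limma adjusted p = 0.00021). It was lower by 0.88 than in the Hdac1 knockout (change -0.88, adjusted p = 0.000165) and by 0.55 than in the Hdac2 knockout (change -0.55, adjusted p = 0.0096). It changed by -0.32 ± 0.15 in the Hdac2 knockout (adjusted p = 0.277) and by 0.02 ± 0.15 in the Hdac1 knockout (adjusted p = 0.986). Obox7 minus Obox5 was lower by 0.51 on double knockout than on wild-type arrays (-2.39 ± 0.22 against -1.89 ± 0.30, SD, n = 4 each), which missed the threshold (exact permutation p = 0.0571, also after adjustment over the 3 comparisons).

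The probe set shared by Obox3 and Obox7, 10560160, read 9.9999, 10.26, 10.01 and 10.24 in double knockouts. It read 10.31, 10.35, 10.42 and 10.36 in Hdac1 knockouts, 10.17, 10.33, 10.35 and 10.14 in Hdac2 knockouts, and 10.25, 10.25, 10.40 and 10.23 in wild type. Double knockout arrays overlapped wild type and lay below all Hdac1 knockout arrays, as was so for 14.2% of all 35556 probe sets. Its change in the double knockout was -0.16 ± 0.07 against wild type (limma adjusted p = 0.133; -0.25 with adjusted p = 0.02 after centring) and -0.23 ± 0.07 against the Hdac1 knockout (adjusted p = 0.0265, 28.7% of all probe sets changed). Against the Hdac2 knockout it was -0.12 ± 0.07 and did not pass (adjusted p = 0.276, 24.5% of all). The call against the Hdac1 knockout was lost without double knockout replicate 1 (adjusted p = 0.0846) or 3 (0.0854) and without Hdac1 knockout replicate 3 (0.0716) or 4 (0.0523).

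**Figure D3:**
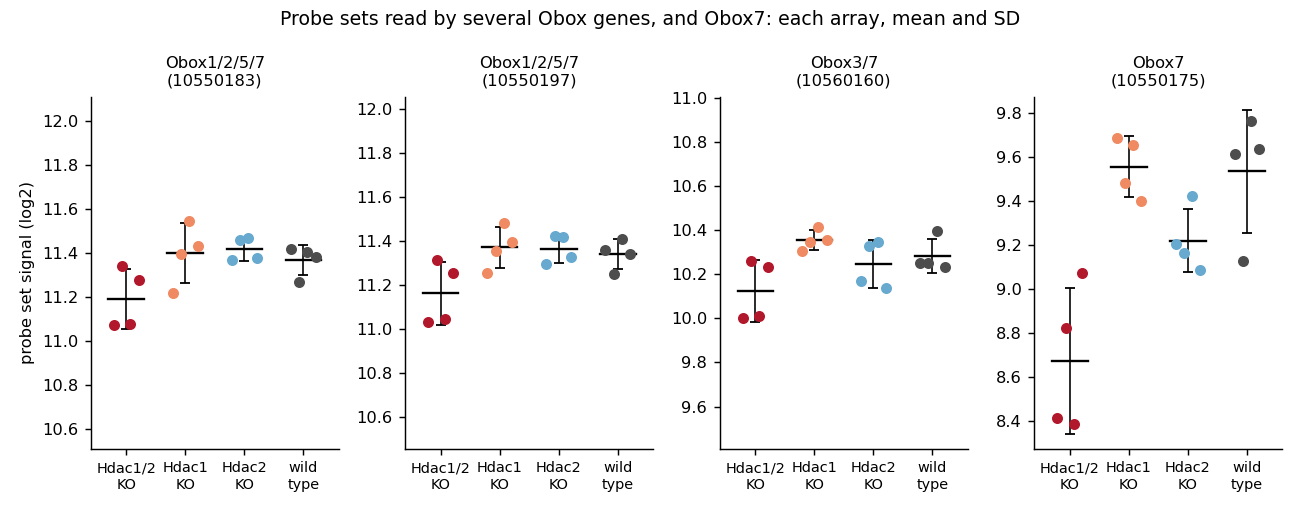
Log2 signal (vertical axis, a span of 1.6 in every panel) of 3 probe sets shared by several Obox genes and of the Obox7 probe set, with 1 point per array, bars for the mean and SD, and genotypes along the horizontal axis. Obox7 arrays of the double knockout, from 8.38 to 9.07, lie below all others, as was so for 11.2% of all single-symbol probe sets. The shared probe sets overlap between double knockout and wild type.

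Within the double knockout the arrays were ordered alike in all bright Obox probe sets: replicates 1 and 3 were lower than replicates 2 and 4 for Obox3, Obox5, Obox7 and every shared probe set. Copies share probe sequence and all probe sets share the RNA of an array, so these are no independent observations. The fall of Obox5 was between -0.39 and -0.31 when each replicate of either group was left out in turn, and passed in all 8 of those fits.

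**Figure D4:**
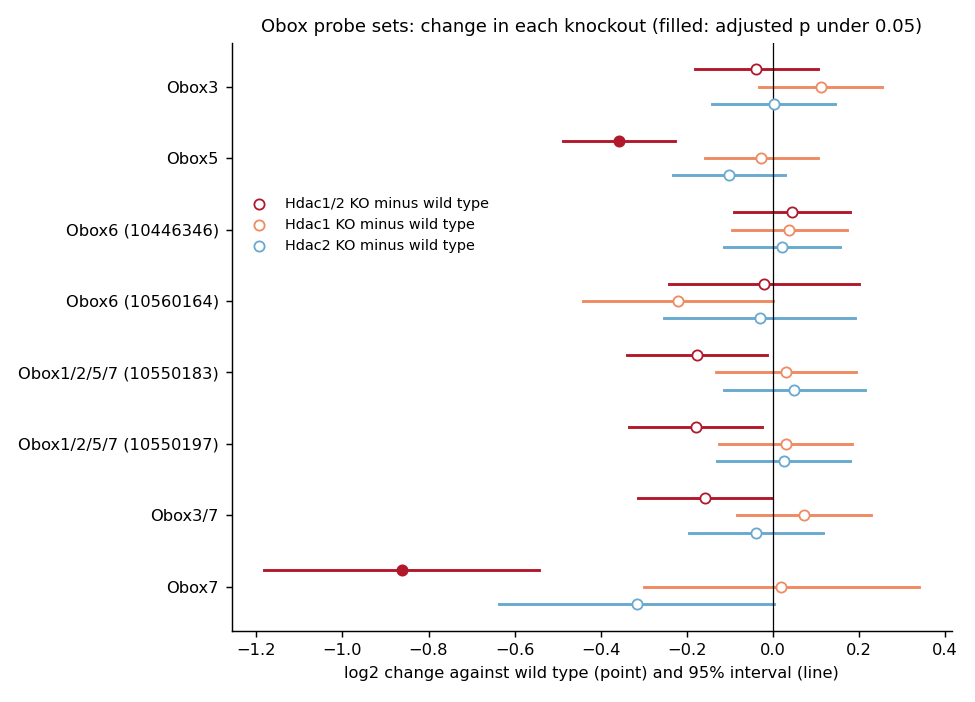
Log2 change against wild type (horizontal axis; point, with its 95% interval from limma as a line) of 8 Obox probe sets in the double, Hdac1 and Hdac2 knockouts; filled points had an adjusted p under 0.05. Only Obox5 at -0.36 and Obox7 at -0.86 in the double knockout are filled, and every single-knockout point is open.

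Other homeobox genes related to the family or active in oocytes moved in both directions. Of 20 listed genes 14 had a single-symbol probe set, and in the double knockout 4 rose, 2 fell and 8 did not pass, with a median log2 change of 0.12, against -0.01 over all probe sets. These counts are near the share of all probe sets that changed (38.3%, 18.5% higher and 19.8% lower) and do not set the list apart. In the double knockout Hdx, a homeobox gene on the X chromosome, rose by 2.60 ± 0.14 (limma adjusted p = 5.1e-10) and also in the Hdac2 knockout, by 2.01 (adjusted p = 9.36e-07). Sebox, a maternal homeobox gene needed by the early mouse embryo, fell by 1.39 ± 0.17 in double knockouts (adjusted p = 4.51e-06) and by 0.68 in the Hdac2 knockout (adjusted p = 0.0244).

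Dmbx1, a paired-like gene, was higher in the double knockout by 0.92 ± 0.11 (limma adjusted p = 5.72e-06). Otx2, whose homeodomain is a relative of that of OBOX, rose by 0.49 ± 0.09 (adjusted p = 0.00048) at a dim level of 3.80 in double knockout, against 3.31 in wild-type oocytes. Nobox, the homeodomain factor that activates many oocyte genes, averaged 10.81 ± 0.03 in double knockout and 10.85 ± 0.06 in wild-type oocytes (SD, n = 4 each; adjusted p = 0.583). In the Hdac1 knockout 0 of 14 passed (0.0707% of all probe sets changed). In the Hdac2 knockout 1 rose, 1 fell and 12 did not pass (5.59% of all changed).

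Of 8 transcription factors of the oocyte, 2 rose, 1 fell and 5 did not pass in the double knockout (median 0.06), near the 38.3% of all probe sets that changed. Figla, a helix-loop-helix activator of zona pellucida genes, fell by 0.56 ± 0.10 (limma adjusted p = 0.000261), Sohlh1 rose by 1.08 ± 0.22 (adjusted p = 0.000811) and Foxo3 by 0.26 ± 0.05 (adjusted p = 0.000228), while Taf4b changed by 0.15 ± 0.07 (adjusted p = 0.129). Of 11 measured oocyte markers 0 rose, 2 fell and 9 did not pass (median 0.02; 19.8% of all probe sets fell); Mos, a kinase of meiotic maturation, fell by 0.50 ± 0.06 (adjusted p = 3.83e-06) and Kit by 0.17 ± 0.05 (adjusted p = 0.0154). In both single knockouts 0 of these genes passed, against 0.0707% of all probe sets in the Hdac1 and 5.59% in the Hdac2 knockout.

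Most measured genes of a list for the early embryo, the stage at which OBOX proteins are known to act, rose in the double knockout. Of 19 listed genes of the 2-cell embryo, 10 had a single-symbol probe set. In the double knockout 9 of these 10 rose and 1 fell, with a median log2 change of 4.20. Over all single-symbol probe sets 18.5% were higher and 19.8% lower there, with a median of -0.01. Among the 10, Usp17lb rose by 5.37 ± 0.13 and Tmem92 by 5.45 ± 0.17 (limma adjusted p = 1.85e-14 and 5.14e-13). This list was chosen with earlier results of these arrays known, so its direction is no independent evidence. In the Hdac2 knockout 3 rose and 1 fell (5.59% of all probe sets changed), and in the Hdac1 knockout 0 passed (0.0707% of all). A relation between these genes and the Obox genes was not tested.

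Markers of other ovarian cells were mostly dim, and their part in the Obox results was not tested. Beside the counts in the double knockout stands the 38.3% of all probe sets that changed there. Of 8 granulosa cell markers 1 rose, 2 fell and 5 did not pass in the double knockout, and the mean over the list ranged over arrays from 4.78 to 4.96 in double knockout, 4.90 to 5.01 in Hdac1 knockout, 4.86 to 5.01 in Hdac2 knockout and 4.85 to 5.03 in wild type. The defining markers Amh and Foxl2 were dim, at 3.43 and 4.78 in double knockout and 3.45 and 4.71 in wild type, whereas Nr5a2, which oocytes express too, was bright and fell by 1.07. Kitl, the gene of the KIT ligand, fell by 0.37 in double knockout oocytes (adjusted p = 0.00152 in limma) and by 0.50 in Hdac2 knockout oocytes (adjusted p = 0.00178). It was the 1 granulosa cell marker that passed in the Hdac2 knockout (5.59% of all probe sets changed). In the Hdac1 knockout 0 of 8 passed (0.0707% of all changed). Of 8 theca and stroma markers 1 rose and 7 did not pass, the list mean ranging from 3.87 to 3.94 in double knockout, 3.83 to 3.92 in Hdac1 knockout, 3.78 to 3.89 in Hdac2 knockout and 3.78 to 3.88 in wild type. Of 6 blood, immune and endothelial markers 1 rose, 1 fell and 4 did not pass, with a median log2 change of -0.02. The list mean ranged from 4.56 to 4.66 in double knockout and 4.73 to 4.88 in Hdac1 knockout. It ranged from 4.77 to 4.86 in Hdac2 knockout and 4.73 to 4.85 in wild type. By this mean the double knockout arrays lay below the others, though the median change of the list was small. Pecam1, which fell by 1.37, was the bright member of that list, and Ptprc and Cdh5 stood at 3.85 and 3.55 in double knockout and 3.78 and 3.56 in wild type. In both single knockouts 0 theca, stroma, blood, immune or endothelial markers passed, beside the same shares of all probe sets. The 1 gene that rose in each of these lists, Inha, Acta2 and Cd68, lost its call under some alternatives.

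Genes beside the cluster were taken from the gene order of the RefSeq table, within 10 genes on either side of any member. This window held 36 genes, 23 of them Obox entries, and 6 of the 13 others had a probe set of their own: Crx, Crxos, Selenow, Nop53, Ehd2 and Bicra. In the double knockout Crxos, a homeobox gene next to Crx, rose by 0.71 ± 0.14 (limma adjusted p = 0.000487) at a dim level of 4.01, against 3.31 in wild type. Bicra, a subunit gene of a chromatin remodelling complex, fell by 0.47 ± 0.07, to 6.19 in double knockout, against 6.67 in wild type. The other 4 did not pass, so 2 of 6 changed, against 38.3% of all probe sets. In the Hdac1 and Hdac2 knockouts 0 of 6 passed, against 0.0707% and 5.59% of all probe sets.

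The genes whose pattern over the 16 arrays was most like that of each member were sought among 10294 named probe sets above the median brightness. Obox5 was most like Ccdc77 (Pearson r = 0.959), Rnf170 (0.957) and Dmac2l (0.956), and over the 12 arrays without the double knockout these stood at 0.823, 0.601 and 0.839. Obox3 was most like Cdv3 (0.854), Scoc (0.837) and Cop1 (0.836), which stood at 0.823, 0.767 and 0.802 without the double knockout. The brighter Obox6 probe set was most like Tmem219 (0.692), Dnajc25 (0.683) and Srsf3 (0.679). These are the top of a long ranking over arrays that share their RNA and scaling, and describe likeness only.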

How the data were processed

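The members and gene lists were chosen with earlier results of these data known. In the deposited table each probe set has 1 log-scale value per array, taken as log2. The labels name no base: base e would put the highest value at 394439, past a 16-bit scanner's 65536 steps, and base 2 at 7566, which does not settle it, and every fold change rests on base 2. The submitters' processing notes name MAS5 without a version; the series' design text also names GeneSpring and SAM, and no source used here says how they were combined. Values were used as deposited, since no array's quartile lay over 0.2 from the median over arrays (largest distance 0.103).

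Probe sets were named from the platform annotation: 21218 with 1 symbol, 1881 with several and 12457 with none. A linear model of all 16 arrays had 1 mean per genotype (limma 3.58.1, R 4.3.3, lmFit and eBayes, 12 residual degrees of freedom), with two-sided p-values adjusted by Benjamini-Hochberg over the 21218 probe sets and a threshold of 0.05; it was tested on simulated data. Shared Obox probe sets were tested in a fit of all 35556. Single values were also tested by exact permutation of arrays (scipy 1.17.1, Python 3.11.15). Genes named were all Obox probe sets, Hdac1 and Hdac2, the 3 most similar probe sets per member, and up to 4 genes per list with the smallest adjusted p; Nobox, Amh, Foxl2, Cdh5 and the genes beside the cluster are named outside that rule. Alternatives were scaling, a filter on dim probe sets, all probe sets, the 2 groups alone, a trended prior, a 1.4-fold limit, a replicate block and leaving out each array.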

Additional observations from a re-analysis of the deposited data

Results flagged for a closer look

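In 16 of 232 groups of 4 arrays, 1 array stood apart from the other 3 by Dixon's criterion; chance gives about 1 in 20. For Obox probe sets this was only the wild-type replicate 3 of the Obox3 and Obox7 probe set, high at 10.40. Of the genes most like the members, Ccdc77 was low at 7.55 in Hdac1 knockout replicate 1 and Cop1 high at 10.39 in Hdac2 knockout replicate 3. Of the oocyte factors, Foxo3 was low at 7.81 in Hdac1 knockout replicate 2 and Figla low at 7.79 in replicate 1. Of the 2-cell genes, Usp17la was high at 6.51 in Hdac2 knockout replicate 1, and Tdpoz3 stood at 9.001 in double knockout replicate 1, 4.08 in Hdac1 knockout replicate 2 and 4.63 in Hdac2 knockout replicate 2. Of the markers of other cells, Nr5a2 stood at 9.73 in wild-type replicate 2, Kitl at 4.43 in Hdac1 knockout replicate 2, Pecam1 at 8.55 in Hdac2 knockout replicate 3, Ptprc at 3.89 in wild-type replicate 4 and Foxl2 at 4.50 in wild-type replicate 1. Hdac2 was low at 11.05 in Hdac1 knockout replicate 2, and Crxos high at 4.35 in double knockout replicate 2.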

How the results depend on the processing

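The fall of Obox5 in the double knockout ranged from -0.45 to -0.31 over 15 alternatives and passed in all of them (adjusted p at most 0.0029). Of 441 values of Obox probe sets with 1 member symbol under an alternative, 431 kept their side of the threshold, 10 newly passed, 0 lost a call and 0 called values changed direction, while 35 values below the threshold changed sign. With a 1.4-fold limit 0 member probe sets were counted in each of the 3 comparisons of the double knockout, in place of 1. Against the Hdac1 knockout the count was 2 after centring arrays on their medians and 2 after quantile normalization, Obox3 being added. For the interaction the count was 1, in place of 0, when dim probe sets were left out, after centring, with a trended prior and after quantile normalization (Obox5), and between 0 and 1 when arrays were left out in turn. It was 1 without double knockout replicate 2 or 4 or Hdac1 knockout replicate 1 (Obox5, adjusted p = 0.0384, 0.0389 and 0.0338), and without Hdac2 knockout replicate 3 (Obox6 10560164, change 0.35, adjusted p = 0.0417). The interaction of Obox7 (-0.57, adjusted p = 0.0666) passed with dim probe sets left out (0.0471), after centring (-0.66, 0.0333) and after quantile normalization (-0.60, 0.0471), and without double knockout replicate 4 (0.0166) or wild-type replicate 3 (0.0471). The cause was not tested.

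Same-numbered replicates did not deviate together (24 pairs, r from -0.148 to 0.087, and 2 of 16 arrays closest to their own number). No pairing by number was therefore seen, which does not exclude a weak one. With the replicate block, 1 member probe set still passed in each comparison of the double knockout. The calls of 10550183 against the Hdac2 knockout (adjusted p = 0.057) and of 10550197 against the Hdac1 knockout (adjusted p = 0.0518) were lost.

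Counts over all probe sets with the 1.4-fold limit were 3472 in place of 8122 for the double knockout against wild type, 3518 in place of 8220 against the Hdac1 knockout, 2576 in place of 7155 against the Hdac2 knockout, 454 in place of 1187 for the Hdac2 knockout, 469 in place of 1226 between the single knockouts, and 2685 in place of 4939 for the interaction. Leaving out arrays gave down to 683 for the Hdac2 knockout and 678 between the single knockouts, where testing all probe sets gave 813; the Hdac1 knockout had 15, 24 without dim probe sets and 30 without its replicate 4. Of 49 other probe sets followed in the double knockout against wild type, which include every other gene the text names, Inha, Acta2 and Cd68 lost their call under some alternative and 0 called values changed direction. Dim signals limit what can be said of Obox6.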
